A study of Mus musculus with 6 samples.

Results

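Histone genes were taken as the 65 of 18227 genes whose symbol is H1f, H2ac, H2bc, H3c or H4c followed by a number, or H2aw. They comprised 9 H1, 17 H2A, 15 H2B, 12 H3 and 12 H4 genes. The RNA came from the corneas of male C57BL/6 mice aged 6 weeks: 3 samples were Muc13-/- (Muc13 knockout, KO 1 to 3) and 3 were wild type (WT 1 to 3). Values of single libraries are listed in the order 1, 2, 3. Muc13 encodes a transmembrane mucin of epithelial surfaces. The labels name no promoter, Cre or deleted exon for the knockout, and do not say whether a sample is 1 mouse or a pool, so p-values measure the spread between these samples only. The comparison asked which histone genes differ in level between the genotypes.

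Histones package DNA into nucleosomes: a core of H2A, H2B, H3 and H4 is wrapped by DNA, and the linker histone H1 binds where the DNA enters and leaves. Most of the genes in these families are replication-dependent: they lie in clusters, have no introns, are transcribed in S phase, and end their mRNAs in a conserved stem-loop in place of a poly(A) tail. A few histone genes, such as H1f0, make polyadenylated mRNA outside S phase, and some clustered genes can also switch to a polyadenylated form in cells that have stopped dividing. The corneal epithelium holds dividing basal cells, while the retina is largely postmitotic.

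Total expected counts were 1.41e+07 to 1.48e+07 in the knockout and 1.49e+07 to 1.55e+07 in the wild type, so that 3 counts, the limit a count of 0 allows, stood for 0.185 to 0.233 CPM (counts scaled to a common library size by TMM; counting error only). Muc13 had 9, 4 and 2 counts in the KO libraries and 18, 21 and 9 counts in the WT libraries. The groups overlapped and the gene did not pass the filter on low counts, so it is a weak check of the labels. WT 1 and WT 2 stood apart from the other 4 libraries in retina content, and other tissues varied too. The 22 retina markers summed to 24741 to 42824 CPM in KO corneas and to 519, 661 and 27906 CPM in the WT libraries. The 16 corneal epithelium markers summed to 37285, 36312 and 6004 CPM in the KO libraries and to 120336, 95756 and 28829 CPM in the WT libraries, KO 3 being lowest. The 15 lens markers summed to 3338, 74970 and 84.1 CPM in the KO libraries and to 13.7, 3182 and 36679 CPM in the WT libraries, and the 14 skeletal muscle markers to between 135 and 1268 CPM in KO corneas and to 5522, 4427 and 452 CPM in the WT libraries. The 7 red blood cell genes summed to 183, 231 and 419 CPM in the KO libraries and to 91.6, 34.7 and 124 CPM in the WT libraries. The groups of this sum did not overlap, as was the case for H2aw, H2bc4 and H2ac19 below. Of the 5 tested, 4 were higher at an unadjusted p under 0.05 in edgeR, against 0.721% of all genes. The part of tissue content in the differences below was not tested, and log2 fold changes are therefore also given against WT 3 alone and against WT 1 and WT 2. Against WT 1 and WT 2, 34.1% of all genes passed an adjusted p of 0.05 in edgeR. Such a p-value beside a gene does not set it apart from these many others. It is printed only where under 0.05, and none is printed beside a gene against WT 3, which is 1 library. In such bulk RNA, fewer cells of a type and less RNA per cell cannot be told apart.

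The histone stem-loop was searched in the GENCODE M21 transcripts (GRCm38) after the stop codon, as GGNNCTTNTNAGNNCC on the transcribed strand. It was found in 44 of the 65 histone genes (67.7%) and in 42 of 21634 other genes (0.194%). The 5 commonest forms are shown because they are the mark by which replication-dependent transcripts are told from the others, with the stem in capitals and the loop in lower case.
25 genes of H1, H2A, H2B and H3, among them H1f2, H2aw, H2ac18, H2ac19, H3c14 and H3c15: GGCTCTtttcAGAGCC
6 genes, among them H3c3 and H2bc12: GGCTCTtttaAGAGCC
6 H4 genes, among them H4c8: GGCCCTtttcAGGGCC
H4c9 and H4c14: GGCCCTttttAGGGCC
H4c2 and H4c11: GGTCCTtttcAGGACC
The H4 genes kept the stem and loop shape with other stem bases. Of the genes tested below, H1f0, H1f10, H2bc4, H2bc21, H2bc23 and H2bc24 had transcripts annotated beyond the stop codon with no match to this motif.

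Many H2A and H2B genes lie head to head, with both start sites on either side of 1 short stretch of DNA, and 10 such pairs were annotated with gaps of at most 500 bases. Promoters were taken as the 250 bases before the RefSeq start (GRCm38.p6), available for 59 of the 65 genes in 60 windows. The CCAAT box was present on either strand in 80% of these windows and in 33.8% of all 32851 windows of that length. The TATA motif TATAAA was present in 43.3% against 12.4%, and the octamer ATTTGCAT, the recognition sequence of OCT1, in 20% against 1.6%. The octamer was in 35.3% of H2A and 46.2% of H2B windows and in 0% of H1, H3 and H4 windows, while CCAAT was in 100% of H2A and H2B windows but in 27.3% of H4 windows. No motif contains another, both strands were searched, and a match is a description, not a bound site. Below are the windows of H2ac6 (chr13:23683960-23684209, minus strand), which spans most of the 250-base gap to H2bc4, of H2ac20 (chr3:96220881-96221130, minus strand), which spans the 238-base gap to H2bc21, and of H2aw (chr11:58954435-58954684, plus strand). Capitals mark the CCAAT box, the TATA motif and the octamer in either orientation. The first pair of windows shows what partners of very unequal level have in common, and H2aw is the histone gene with the largest difference in CPM among those higher in every knockout library.
H2ac6: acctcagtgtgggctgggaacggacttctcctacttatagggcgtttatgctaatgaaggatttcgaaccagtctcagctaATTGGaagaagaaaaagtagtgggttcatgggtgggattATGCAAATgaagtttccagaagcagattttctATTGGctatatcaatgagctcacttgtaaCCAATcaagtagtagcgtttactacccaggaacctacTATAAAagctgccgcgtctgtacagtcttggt
H2ac20: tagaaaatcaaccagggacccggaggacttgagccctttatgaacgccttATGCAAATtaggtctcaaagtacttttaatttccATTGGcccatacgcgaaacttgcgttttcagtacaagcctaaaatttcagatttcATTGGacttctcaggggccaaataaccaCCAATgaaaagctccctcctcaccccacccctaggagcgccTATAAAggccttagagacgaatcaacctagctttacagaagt
H2aw: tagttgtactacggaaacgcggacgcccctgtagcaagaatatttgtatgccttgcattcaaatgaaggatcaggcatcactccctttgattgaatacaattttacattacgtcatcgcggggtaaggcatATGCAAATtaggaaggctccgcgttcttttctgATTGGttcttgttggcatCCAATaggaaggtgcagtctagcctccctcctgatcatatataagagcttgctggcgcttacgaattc
H2ac6 and H2ac20 each held 3 CCAAT boxes, 1 TATA motif and 1 octamer, and H2aw held 2 CCAAT boxes, 0 TATA motifs and 1 octamer. The partners' levels differed widely across these shared windows. H2bc4 was at 176 ± 11.7 TPM (a scale that allows for transcript length) in the knockout and 92.2 ± 39.7 TPM in WT corneas, and H2ac6 at 3.37 ± 0.998 TPM in KO and 1.22 ± 1.49 TPM in WT corneas (SD, n = 3 each). H2bc21 was at 14.7 ± 6.99 TPM in KO and 6.63 ± 5.73 TPM in WT corneas, and H2ac20 at 0.263 ± 0.456 TPM in KO and 0.237 ± 0.21 TPM in WT corneas. In counts over the 6 libraries H2bc21 had 1631 and H2ac20 had 4. The annotated ends of the partners differ too: H2bc4 and H2bc21 have no stem-loop, H2ac6 extends past it and H2ac20 ends at it. The part of these ends in the levels was not tested.

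Histone genes held 0.041% to 0.0566% of the counts of a library, and few of the 65 carried them. The 5 most abundant held 85.3% of the histone counts. Of the 65, 27 had counts above 0 in every library, 29 were at 0 in at least 3 libraries and 0 were at 0 in all of them. The filter on low counts kept 23 genes (5 H1, 4 H2A, 7 H2B, 3 H3 and 4 H4), and the other 42 had totals of 0.47 to 37.26 counts over the 6 libraries, with a median of 4, and together 0.819% of the histone counts. These 42 were 4 H1, 13 H2A, 8 H2B, 9 H3 and 8 H4 genes. No single library had more than 11 counts for any of them. In 2 of the 42 the groups did not overlap, against 10.2% of all genes tested, a set that leaves out genes of such low counts. H4c17 had 2, 1.42 and 1 counts in the KO libraries and 5.68, 7 and 4 counts in the WT libraries, and H2ac7 had 6.41, 3.03 and 3.53 counts in the KO libraries and 0, 2.44 and 0 counts in the WT libraries. With no filter on low counts H4c17 was lower at an unadjusted p under 0.05 (log2 fold change −2.11, SE 0.653, edgeR adjusted p = 0.54).

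Levels differed between classes of annotated 3′ end. The 7 genes annotated past the stop codon without a stem-loop had a median total of 253 counts, and 6 of them had a poly(A) signal, AATAAA or the common ATTAAA form, within the last 40 bases. The 21 genes whose transcripts run more than 100 bases past the stem-loop had a median of 95 counts, with a poly(A) signal in 10. The 23 genes that end within 100 bases of the stem-loop had a median of 5.1 counts and a signal in 2, and the 14 with fewer than 60 annotated bases after the stop codon and no stem-loop had a median of 2.87 counts and a signal in 0. These totals are not corrected for transcript length, which differs between the classes, and the labels name an mRNA library kit without saying how mRNA was selected. Only 3 genes that end at the stem-loop passed the filter, H2ac18, H2ac19 and H4c8.

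**Figure D1:**
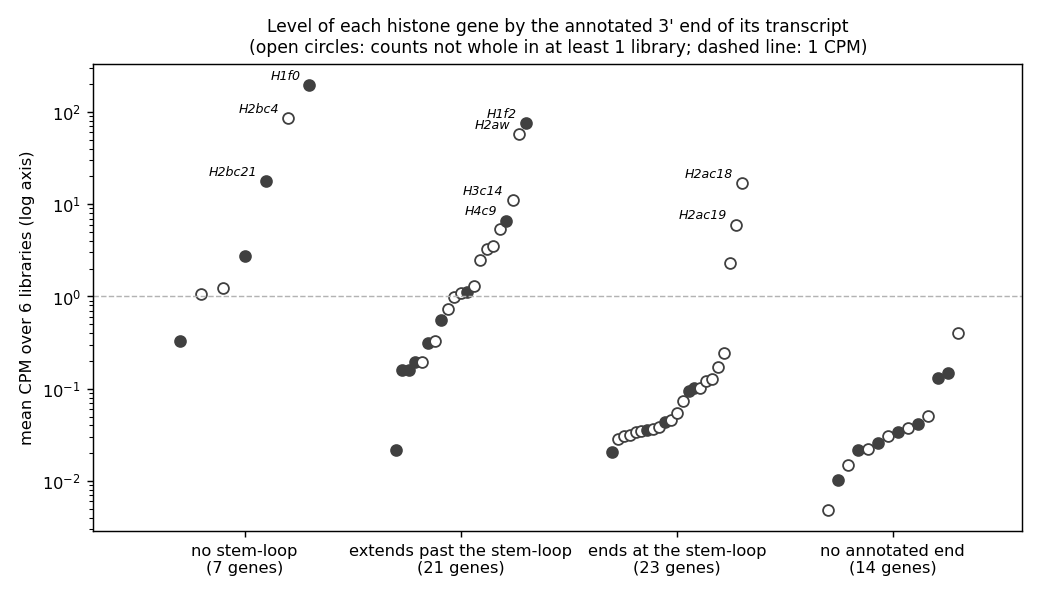
Mean CPM over the 6 libraries (log axis) of each histone gene, grouped by the annotated 3′ end of its transcripts. Points are genes, open where the count is not whole in at least 1 library. The dashed line is 1 CPM, above which lie 6 of 7 genes without a stem-loop and 3 of 23 that end at it.

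Counts that are not whole can arise where reads are divided between similar or overlapping genes, though no source used here describes the counting. They occurred in 40 of the 65 genes (1 H1, 14 H2A, 11 H2B, 7 H3 and 7 H4) and in 16 of the 23 tested. For 4 pairs the sum was whole again in most or all libraries, and for the remaining genes, H2bc4 among them, no partner was shown. H2ac18 and H2ac19, inverted copies on chromosome 3 with 0 differences over 393 coding bases, summed to whole counts in every library, including the 5 in which neither single count was whole. H3c14 and H3c15, which lie beside them and are also inverted, with 0 differences over 411 coding bases, did so in 5 of 6. For H3c2 and H3c4, with 5 differences over 411 bases, the sum was whole in all 4 libraries in which neither single count was. H2aw summed to whole counts in 6 of 6 libraries with Trim17, a tripartite-motif gene that is no histone and whose exons overlap those of H2aw on the same strand. The division of reads within each pair is uncertain, and the sums are given below beside the single genes. Exons of H1f4 and H2bc6 overlap each other and a predicted gene on the same strand. H1f10, H2ac6, H2ac18 and H3c14 also overlap predicted genes on their own strand. Strand cannot tell apart the reads of such overlaps. On the opposite strand, H1f0, H1f10, H2ac6, H2ac18, H2ac19 and H2aw overlap predicted genes, from which reads cannot be told apart where strand was not used.

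No histone gene passed an adjusted p of 0.05 in edgeR's quasi-likelihood test, and neither did any of the 14983 genes tested (0%, smallest adjusted p = 0.501). At an unadjusted p under 0.05 there were 5 of the 23 (21.7%, against 4.38% of all genes). H2bc4, H2aw and H2ac19 were higher in the knockout (0.721% of all genes) and H2bc23 and H1f0 lower (3.66% of all genes). The same 5 were the tested histone genes whose groups did not overlap in CPM, again 21.7%, against 10.2% of all genes (4.71% higher and 5.51% lower). DESeq2 called 0 histone genes and 72 genes in all (0.409%), and limma-voom called 0 of either. The median log2 fold change of the 23 was 0.62, with 16 above 0 and 7 below, against 0.02 over all genes and 51.5% of them above 0. This median rests on which genes passed the filter: over the 64 histone genes present without a filter it was 0.00, with 32 on each side, and with the shared-read pairs summed it was 0.09. It was 0.14 against WT 3 alone and 0.89 against WT 1 and WT 2.

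**Figure D2:**
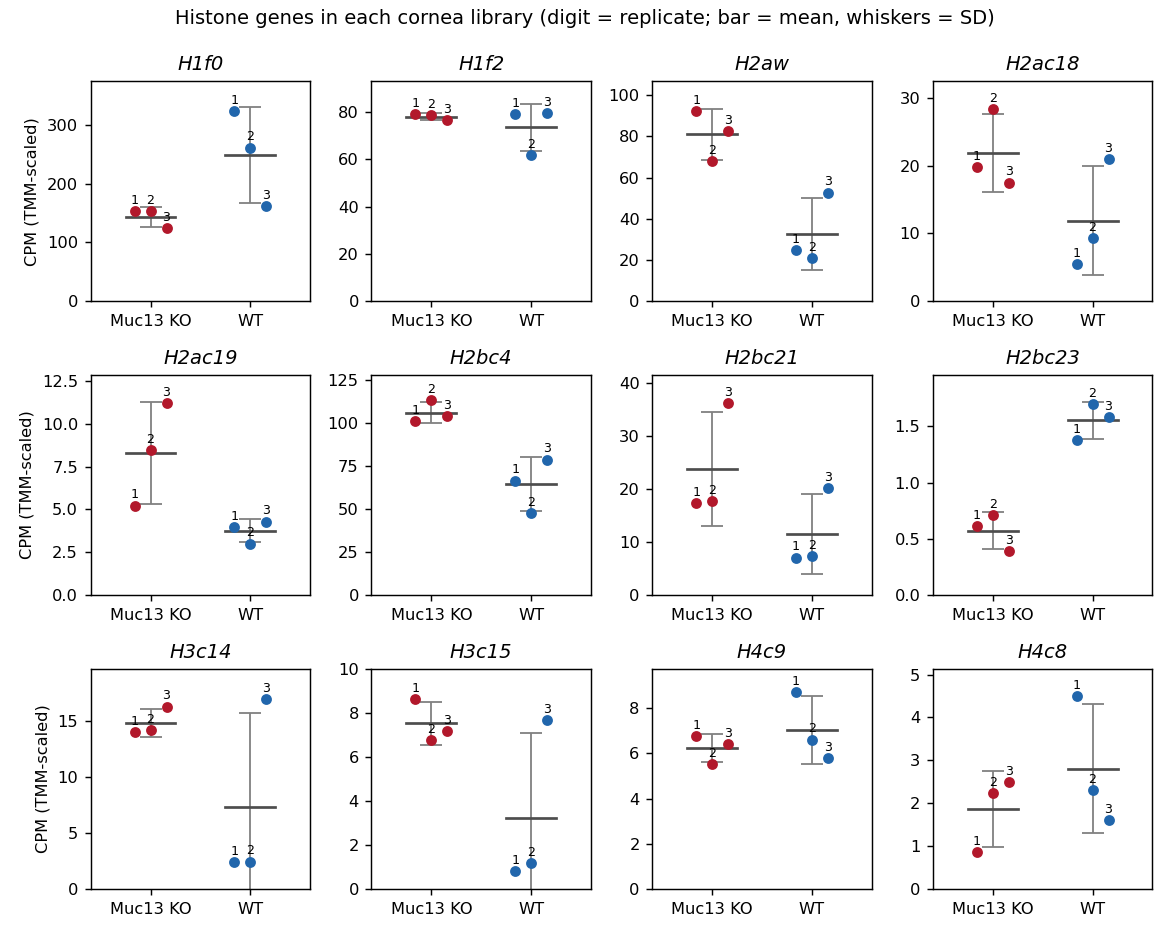
TMM-scaled CPM of 12 histone genes in the Muc13 knockout and WT libraries. Points are libraries (digits give the replicate number), bars are means and whiskers SD (n = 3 each). H2aw, H2ac19 and H2bc4 lie higher and H1f0 and H2bc23 lower in all 3 knockout libraries than in any WT library, while for H3c14 and H3c15 WT 3 lies with the knockout and WT 1 and WT 2 far below.

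Among the linker histones, H1f0, the H1 of non-dividing and differentiated cells, was lower in the knockout and H1f2, a replication-dependent H1, was level. H1f0 (chromosome 15, 79028450 to 79030504, 1 exon, whole counts) was at 153, 153 and 124 CPM in the KO libraries and at 323, 261 and 162 CPM in the WT libraries. The groups did not overlap, but KO 1 and KO 2 were close to WT 3. The means were 143 ± 17 CPM in KO corneas and 249 ± 81.4 CPM in WT corneas (SD over 3 libraries each; log2 fold change −0.80, SE 0.307, adjusted p = 0.501). The log2 fold change was −0.17 against WT 3 alone and −1.03 against WT 1 and WT 2 (adjusted p = 0.023).

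H1f2 (chromosome 13, 23738808 to 23740367) was at 79, 78.7 and 76.4 CPM in the KO libraries and at 79, 61.8 and 79.5 CPM in the WT libraries. Of the 12 histone genes plotted it varied least, with WT 2 as the 1 lower library, and its log2 fold change was 0.09 (SE 0.159; −0.03 against WT 3 alone and 0.15 against WT 1 and WT 2). Per length, H1f0 stood at 1.39, 1.4 and 1.16 times H1f2 in the KO libraries and at 2.95, 3.04 and 1.46 times in the WT libraries, on the TPM scale. The ratio was thus highest in WT 1 and WT 2, and WT 3 was next to the knockout. H1f10, the H1X variant, was at 2.82 ± 0.53 CPM in KO corneas and 2.71 ± 2.01 CPM in WT corneas, where WT 1 to 3 had 1.01, 2.2 and 4.92 CPM (0.05, SE 0.635). Its log2 fold change was −0.80 against WT 3 alone and 0.81 against WT 1 and WT 2. H1f3 and H1f4, both replication-dependent linker histones, overlapped between groups. The log2 fold change of H1f3 was −0.92 (SE 0.726), with 0.44 against WT 3 alone and −1.31 against WT 1 and WT 2. That of H1f4 was 0.77 (SE 0.503), with 0.30 and 1.08 in the same order.

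Among the H2A genes, the 3 most abundant were higher on average in the knockout. H2aw (chromosome 11, 58954685 to 58956830), which lies outside the large histone clusters, was at 92.5, 68.1 and 82.5 CPM in the KO libraries and at 24.8, 20.9 and 52.8 CPM in the WT libraries. Every knockout library lay above every wild-type library, and WT 3 lay between the other 2 wild-type libraries and the knockout. The means were 81.1 ± 12.3 CPM in KO corneas and 32.9 ± 17.4 CPM in WT corneas (log2 fold change 1.30, SE 0.396, adjusted p = 0.501), with 0.62 against WT 3 alone and 1.83 against WT 1 and WT 2 (adjusted p = 0.00569). Trim17, which overlaps it, took 440.6, 229.37 and 270.42 counts in the KO libraries and 3.03, 10.63 and 205.29 counts in the WT libraries. Its share of the summed counts was 24%, 18.5% and 16.8% in the KO libraries and 0.941%, 3.49% and 19.5% in the WT libraries. The sum of both was at 122, 83.6 and 99.2 CPM in KO corneas and at 25, 21.7 and 65.6 CPM in WT corneas, again without overlap (1.44, SE 0.481).

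H2ac18 (chromosome 3, 96245497 to 96246082) was at 19.8, 28.3 and 17.5 CPM in the KO libraries and at 5.45, 9.28 and 21 CPM in the WT libraries. Its copy H2ac19 (96239749 to 96240276) was at 5.23, 8.45 and 11.2 CPM in the KO libraries and at 3.97, 3.01 and 4.29 CPM in the WT libraries. H2ac19 did not overlap between the groups (1.14, SE 0.404, adjusted p = 0.501; 0.95 against WT 3 alone and 1.25 against WT 1 and WT 2). H2ac18 did overlap (0.87, SE 0.537; 0.06 against WT 3 alone and 1.57 against WT 1 and WT 2, adjusted p = 0.0289). Since their coding sequences are identical, the sum is also given: it was 25.1, 36.7 and 28.7 CPM in the KO libraries and 9.41, 12.3 and 25.3 CPM in the WT libraries. The groups then overlapped, with KO 1 just below WT 3 (0.94, SE 0.419, adjusted p = 0.501). H2ac6, the partner of H2bc4, was at 5.1 ± 1.11 CPM in KO corneas and at 1.92 ± 2.01 CPM in WT corneas, where WT 3 had 4.22 CPM (1.40, SE 0.837; 0.27 against WT 3 alone and 2.75 against WT 1 and WT 2, adjusted p = 0.0157).

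Among the H2B genes, H2bc4 was higher and H2bc23, a gene near the detection limit, lower in the knockout. H2bc4 (chromosome 13, 23684199 to 23692908, 6 of 6 libraries not whole) was at 101, 113 and 104 CPM in the KO libraries and at 66.5, 47.8 and 78.7 CPM in the WT libraries. All 3 knockout libraries lay above all 3 wild-type libraries. The means were 106 ± 6.39 CPM in KO corneas and 64.3 ± 15.5 CPM in WT corneas (log2 fold change 0.72, SE 0.220, adjusted p = 0.501), with 0.43 against WT 3 alone and 0.89 against WT 1 and WT 2 (adjusted p = 0.0272). H2bc21 (chromosome 3, 96221119 to 96223738, whole counts), an H2B known to accumulate in mouse olfactory neurons, was at 17.4, 17.7 and 36.2 CPM in the KO libraries and at 7.08, 7.32 and 20.2 CPM in the WT libraries. KO 3 stood highest and WT 3 lay above KO 1 and KO 2 (1.04, SE 0.557; 0.25 against WT 3 alone and 1.72 against WT 1 and WT 2).

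H2bc23 (chromosome 13, 21806612 to 21810197) was at 0.617, 0.71 and 0.39 CPM in the KO libraries and at 1.38, 1.7 and 1.58 CPM in the WT libraries, and its counts were not whole in 6 of 6 libraries. The groups did not overlap, and the log2 fold change of −1.44 (SE 0.449, adjusted p = 0.501) was −1.44 both against WT 3 alone and against WT 1 and WT 2. Its difference was thus as large against either set of wild-type libraries, at a level of 93.1 counts over the 6 libraries. H2bc24, its near relative, was at 0.605 ± 0.128 CPM in KO corneas and 1.87 ± 2 CPM in WT corneas. WT 1 to 3 had 3.99, 1.63 and 0 CPM of H2bc24, and no fold against WT 3 is given. In counts, WT 1 to 3 had 17.73, 23.97 and 25.3 for H2bc23 and 51.23, 22.92 and 0 for H2bc24. Counts of H2bc24 were not whole in 5 libraries. H2bc23 and H2bc24 were not among the pairs whose sums were whole in most or all libraries. That check covers pairs only and cannot show reads divided among more genes. No fold was fitted to their sum, so the equal folds of H2bc23 may depend on how reads were divided. H2bc6, which ranked after H2bc4 and H2bc21 in CPM, had 3 ± 0.377 CPM in KO corneas and 1.97 ± 1.32 CPM in WT corneas (0.62, SE 0.653; −0.08 against WT 3 alone and 1.18 against WT 1 and WT 2).

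Among the H3 genes, the copies H3c14 and H3c15 were the most abundant, and in WT 1 and WT 2 both were far below the other 4 libraries. Together they made up 92.4%, 92% and 91.1% of the summed H3 level in the KO libraries and 48.8%, 63.7% and 95.7% in the WT libraries. H3c14 (chromosome 3, 96246685 to 96248509) was at 14, 14.2 and 16.3 CPM in the KO libraries and at 2.39, 2.45 and 17 CPM in the WT libraries. H3c15 (96238108 to 96239127) was at 8.66, 6.79 and 7.18 CPM in the KO libraries and at 0.796, 1.17 and 7.68 CPM in the WT libraries. WT 3 was just above the knockout range for H3c14 and inside it for H3c15. Their sum was 22.4 ± 1.28 CPM in KO corneas and 10.5 ± 12.3 CPM in WT corneas (1.09, SE 0.851, adjusted p = 0.516). The single log2 fold changes of 1.02 (SE 0.841) and 1.23 (SE 0.924) were −0.19 and −0.02 against WT 3 alone, and 2.59 and 2.97 against WT 1 and WT 2 (adjusted p = 0.00499 and 0.00716). H3c4, the next in level, was at 1.32 ± 0.356 CPM in KO corneas and 1.27 ± 0.723 CPM in WT corneas (0.06, SE 0.546; 0.83 against WT 3 alone and −0.21 against WT 1 and WT 2).

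H4 had the summed level closest between the genotypes of the 5 families, at 10.8 ± 0.388 CPM in KO corneas and 12.6 ± 2.67 CPM in WT corneas (log2 ratio of means −0.23). H4c9 (chromosome 13, 22040636 to 22041362, whole counts) was at 6.76, 5.54 and 6.41 CPM in the KO libraries and at 8.71, 6.61 and 5.8 CPM in the WT libraries, with WT 1 as the high library. Its log2 fold change of −0.17 (SE 0.310) was 0.02 when scaled by library size alone, 0.11 against WT 3 alone and −0.30 against WT 1 and WT 2. H4c8 was at 0.862, 2.23 and 2.5 CPM in the KO libraries and at 4.49, 2.31 and 1.61 CPM in the WT libraries (−0.58, SE 0.623; 0.22 against WT 3 alone and −0.85 against WT 1 and WT 2). H4c11 was at 0.552 ± 0.324 CPM in KO corneas and 0.912 ± 0.139 CPM in WT corneas (−0.72, SE 0.629; −0.44 against WT 3 alone and −0.86 against WT 1 and WT 2). The groups overlapped for all 3.

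CPM were summed over all members of a family, tested or not. H2A, H2B and H3 were higher on average in the knockout and H1 and H4 lower, while the sum over all 65 genes was nearly level. For H4 this rested on WT 1: the sums were 10.5, 11.2 and 10.5 CPM in the KO libraries and 15.7, 11.2 and 11 CPM in the WT libraries. In TPM, H4 was instead at 57.5 ± 1.95 in KO corneas and 54.8 ± 7.84 in WT corneas. H1 summed to 230 ± 19.9 CPM in KO corneas and 329 ± 78.6 CPM in WT corneas (log2 ratio of means −0.52). In TPM the H1 sums were closer and the groups overlapped, at 215 ± 31.4 in KO corneas and 242 ± 9.76 in WT corneas. KO 1 was then the highest library, at 251 TPM. H2A, H2B and H3 were higher on average in the knockout in TPM as well. H2A summed to 117 ± 7.08 CPM in KO corneas and 51.6 ± 27.2 CPM in WT corneas (1.18). H2B summed to 137 ± 10.5 CPM in KO and 83.4 ± 22.2 CPM in WT corneas (0.71). H3 summed to 24.4 ± 1.5 CPM in KO and 12.7 ± 11.4 CPM in WT corneas (0.94). In each of these 3 families the knockout libraries lay close together and the WT libraries were spread widely. All families together came to 519 ± 11.2 CPM in KO corneas and 489 ± 55.8 CPM in WT corneas (0.08). Against WT 3 alone the log2 ratios were −0.13 for H1, −0.04 for H4, 0.50 for H2A, 0.37 for H2B and −0.08 for H3. For H2A and H2B the 3 knockout libraries lay above WT 3 too, at 125, 111 and 116 CPM against 83 CPM for H2A and at 126, 137 and 147 CPM against 106 CPM for H2B. No p is given for these sums, and a few genes weigh heavily in them: H1f0 made up 59.8% to 63.6% of H1 in the knockout and 64.3% to 79.6% in the wild type, and H2aw made up 61.5% to 74.2% of H2A in the knockout and 59.9% to 67.4% in the wild type. H2bc4 made up 70.8% to 82.7% of H2B in the knockout and 74.4% to 80.1% in the wild type. H3c14 made up 57.1% to 63.3% of H3 in the knockout and 36.6% to 65.9% in the wild type. H4c9 made up 49.4% to 64.2% of H4 in the knockout and 52.5% to 59.2% in the wild type.

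**Figure D3:**
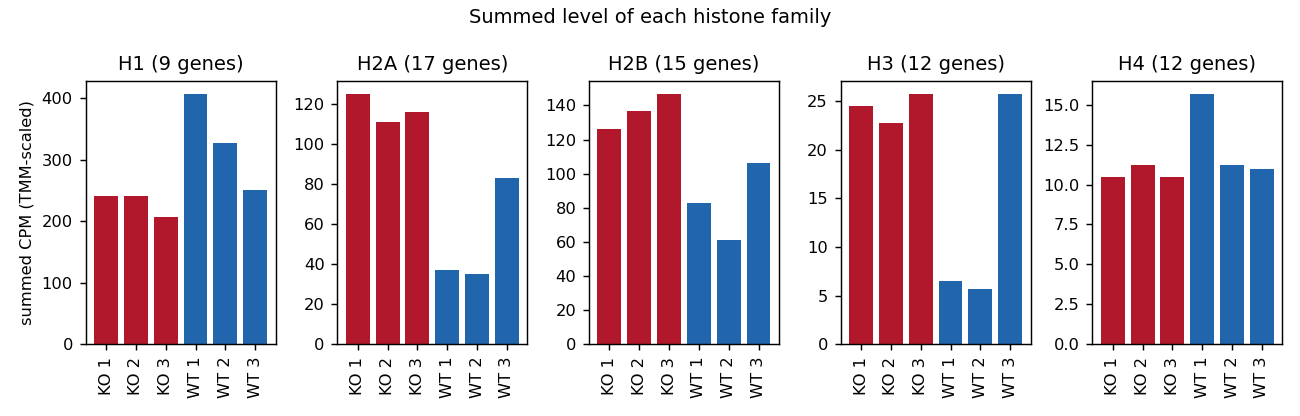
Summed TMM-scaled CPM of all genes of each histone family in KO 1 to 3 (red) and WT 1 to 3 (blue), with a separate linear axis from 0 for each family. WT 1 and WT 2 are lowest for H2A, H2B and H3 and highest for H1, and WT 3 is level with the knockout for H3.

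Within the wild-type group, WT 1 and WT 2 were the lowest of the 6 libraries for 13 of the 23 tested histone genes (56.5%, against 36.3% of all genes tested) and the highest for 4 (17.4%, against 34.2%), namely H1f0, H1f3, H2bc24 and H4c11. WT 3 lay inside the knockout range for 12 (52.2%, against 75.2% of all genes). Without WT 3, 10 of the 23 passed an adjusted p of 0.05 (43.5%, against 34.1% of all genes). Of these, 8 were higher in the knockout (21.1% of all genes), namely H2bc21, H2bc4, H2ac18, H2aw, H3c14, H4c14, H2ac6 and H3c15, and H1f0 and H2bc24 were lower (12.9% of all genes). H4c14 was at 0 in both of those wild-type libraries. Without WT 1 and WT 2, 0 of the histone genes and 0% of all genes passed, with edgeR and with 1 wild-type library assumed to vary as the knockout does, and at an unadjusted p under 0.05 there was 1 histone gene, H2bc24, higher in the knockout (0.317% of all genes were), for which WT 3 was at 0.

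**Figure D4:**
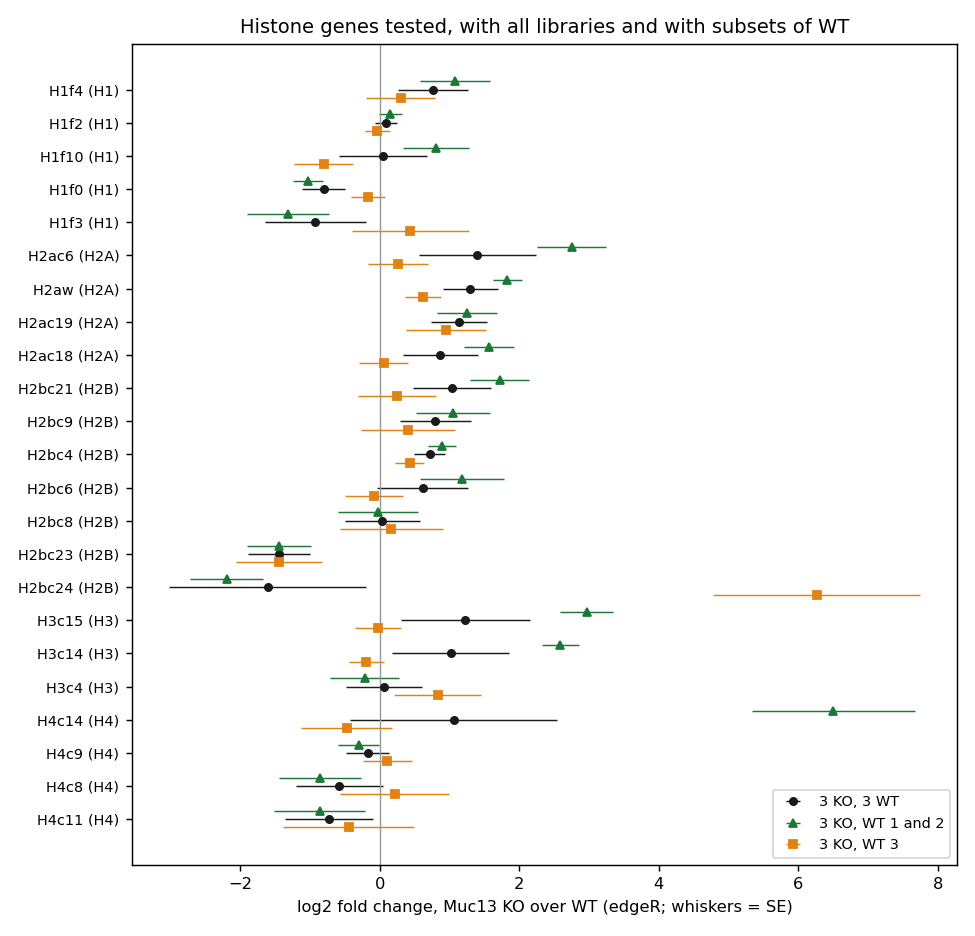
Log2 fold change (Muc13 knockout over WT, edgeR; whiskers are SE) of the 23 histone genes tested, with all libraries (black), against WT 1 and WT 2 (green) and against WT 3 (orange). Most genes of H2A, H2B and H3 sit nearer to 0 against WT 3 than against WT 1 and WT 2, while H2bc23 is at −1.44 in all 3; the points of H2bc24 against WT 3 and of H4c14 against WT 1 and WT 2 are fits to counts of 0 and have no meaning as sizes.

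Genes for the variants H3.3 and H2A.Z, which lie outside the rule and are made throughout the cell cycle, had higher TPM in these libraries than the H3 and H2A genes above. How mRNA was selected is not stated, and how far transcripts that end at a stem-loop were recovered was not tested. The TPM values may therefore not measure the abundance of both kinds of transcript alike. H3f3a and H3f3b, which encode the replacement histone H3.3, summed to 1384 ± 300 TPM in KO corneas and 1712 ± 141 TPM in WT corneas, and all H3 genes of the rule to 34.5 ± 6.86 TPM in KO and 17.4 ± 16.1 TPM in WT corneas. H2az1 and H2az2, which encode H2A.Z, summed to 352 ± 89.5 TPM in KO corneas and 608 ± 174 TPM in WT corneas, and the H2A genes of the rule to 228 ± 8.69 TPM in KO and 103 ± 71.7 TPM in WT corneas. Of 9 variant histone genes tested, 0 were higher and 2 lower at an unadjusted p under 0.05, against 0.721% and 3.66% of all genes. Their median log2 fold change was −0.56 (−0.11 against WT 3 alone). H2az1 was at 180, 159 and 114 CPM in the KO libraries and at 561, 381 and 173 CPM in the WT libraries (−1.30, SE 0.478; −0.20 against WT 3 alone). Cenpa, the centromere histone, was at 3.45, 4.8 and 2.71 CPM in the KO libraries and at 19.6, 12.3 and 5.55 CPM in the WT libraries (−1.77, SE 0.545; −0.60 against WT 3 alone). In both cases WT 1 and WT 2 were the high libraries, the reverse of H3c14.

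Genes that act with histones were counted at an unadjusted p under 0.05, at which 3.66% of all genes were lower. Of 17 genes for histone mRNA processing, 0 were higher and 0 lower at an unadjusted p under 0.05, with a median log2 fold change of −0.01. Slbp, which binds the stem-loop, was at 30.3, 29.8 and 31.3 CPM in the KO libraries and at 59.7, 49.6 and 29.7 CPM in the WT libraries, so that WT 3 was close to the knockout (−0.61, SE 0.275; 0.04 against WT 3 alone). Coil, the scaffold of Cajal bodies, was at 15.6 ± 0.408 CPM in KO corneas and 11.9 ± 3.4 CPM in WT corneas (0.39, SE 0.265; −0.02 against WT 3 alone). Of 24 histone chaperones, 0 were higher and 3 lower, namely Asf1b, Nasp and Mms22l (median −0.33; −0.03 against WT 3 alone). Asf1b, the H3 and H4 chaperone of dividing cells, was at 5.17, 4.53 and 3.21 CPM in the KO libraries and at 14.7, 14.7 and 5.8 CPM in the WT libraries, without overlap (−1.45, SE 0.468; −0.43 against WT 3 alone). Anp32e, which removes H2A.Z, was at 304 ± 50.6 CPM in KO corneas and 187 ± 105 CPM in WT corneas (0.71, SE 0.432; −0.01 against WT 3 alone).

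DNA replication and mitosis genes were set beside the histone genes because replication-dependent histones are made in S phase. The 31 S-phase genes summed to 470, 536 and 412 CPM in the KO libraries and to 1113, 914 and 455 CPM in the WT libraries, with a median log2 fold change of −0.89 (0.00 against WT 3 alone). At an unadjusted p under 0.05, 0 were higher and 3 lower, namely Mcm5, Mcm6 and Dtl. Of all genes tested, 0.721% were higher and 3.66% lower at that threshold, which is also used for the mitosis genes. Mcm6, a subunit of the replicative helicase, was at 25.9 ± 4.5 CPM in KO corneas and 63.4 ± 31.3 CPM in WT corneas (−1.29, SE 0.441; −0.14 against WT 3 alone). The 18 mitosis genes summed to 187, 190 and 66.1 CPM in the KO libraries and to 737, 607 and 186 CPM in the WT libraries, with 0 higher and 13 lower (median −1.80; −0.33 against WT 3 alone). Foxm1, a transcription factor of mitotic genes, was at 7.77 ± 1.37 CPM in KO and 22.1 ± 10.9 CPM in WT corneas (−1.51, SE 0.469; −0.32 against WT 3 alone). These sums were highest in WT 1 and WT 2, where the H2A, H2B and H3 sums were lowest. The H1 sum was also highest there, at 408 and 328 CPM, and the H4 sum was highest in WT 1, at 15.7 CPM. H2aw and H2bc4, which made up most of the H2A and H2B sums, are not annotated as ending at the stem-loop: H2aw extends past it and H2bc4 has none. How the S-phase histone transcripts alone followed these genes was not tested. None of the replication and mitosis genes passed an adjusted p of 0.05 in edgeR with all libraries, and the lists were chosen with results of these data known.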

How the data were processed

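RNA-seq libraries of 3 Muc13 knockout and 3 wild-type mouse corneas were analysed. The authors deposited expected counts (estimated reads per gene, not normalized), here rounded to whole numbers for tests, and TPM values, here used to compare levels between genes. The submitters' processing notes name GRCm38 (mm10); no source used here gives the aligner, counting program or strand setting. Normalized counts, FPKM and 8 group averages were not used.

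Tests used edgeR 4.0.16 in R 4.3.3 (quasi-likelihood, TMM, filterByExpr, robust, genotype as the only term) over all genes, with Benjamini-Hochberg adjusted p under 0.05. Depth was 1.41e+07 to 1.55e+07 counts per library, and the common dispersion had a square root of 0.585. A count within 0.004 of an integer was taken as whole, and a pair's sum within 0.011. Alternatives were DESeq2 1.42.0, limma 3.58.1 (voom), other scalings, filters and roundings, the replicate number as a block, and libraries left out; summing shared-read pairs was added after seeing the data. Mean chi-square values between libraries of 43.4 or more gave no sign of a repeated library. The edgeR fit was tested on simulated data with less spread between libraries than these data have, so its power at the spread seen here was not tested.

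Genes named are the 3 of highest mean CPM in each family, those of at least 1 CPM without overlap between groups, the 3 of smallest p in each direction, H1f0, H1f10, H2aw, H2bc4 and up to 3 of each other list. H2ac6, H2ac7, H2bc24, H4c14 and H4c17, and H2az1, Nasp, Mms22l, Mcm5 and Dtl of the lists, were named after their values were seen. Members and lists were chosen with earlier results of these data known. Gene models are GENCODE M21 and promoters RefSeq, matched by identifier and symbol.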

Additional observations from a re-analysis of the deposited data

How the results depend on the processing

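The count of 0 histone genes past the adjusted threshold held under every alternative run except without WT 3, where it was 10, so leaving out 1 library gave 0 to 10. For all genes it was 72 with DESeq2, and 0 to 5166 with 1 library left out. The median log2 fold change of 0.62 was 0.00 without a filter, −0.01 with DESeq2, 0.14 without WT 1 and WT 2 and 0.09 with shared-read pairs summed, and 0.33 to 0.89 with 1 library left out, the lowest without WT 2 and the highest without WT 3. The no-filter and DESeq2 medians take in genes of few counts. Library size alone moved the median of all genes to 0.19.

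The family log2 ratios with 1 library left out ran from −0.68 to −0.33 for H1, 0.97 to 1.71 for H2A, 0.53 to 0.92 for H2B, 0.59 to 2.00 for H3 and −0.32 to −0.04 for H4. Without WT 1 and WT 2 they were −0.13 for H1, 0.50 for H2A, 0.37 for H2B and −0.08 for H3. The cause was not tested.

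Of 303 alternatives for the 18 named histone genes, 279 kept direction and side of the threshold, 7 passed it (all without WT 3) and 17 changed sign. Without WT 1 and WT 2 the values that changed sign were −0.80 for H1f10, −0.03 for H1f2, 0.44 for H1f3, −0.08 for H2bc6, −0.19 for H3c14, −0.02 for H3c15, 0.22 for H4c8 and 0.11 for H4c9. H4c9 was also at 0.02 with library size alone. With 1 library left out, H1f10 was between −0.34 and 0.81, H1f2 between −0.03 and 0.15, H3c4 between −0.21 and 0.61 and H4c9 between −0.30 and 0.01. For the 11 genes of other lists, 174 of 187 alternatives kept both, 9 passed without WT 3, and without WT 1 and WT 2 Anp32e was at −0.01, Pcna at 0.27, Coil at −0.02 and Slbp at 0.04.

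With the replicate number as a block, 0 histone genes passed (smallest adjusted p of all genes 0.165) and the median was 0.75. At an unadjusted p under 0.05 the count of all genes was 2529 against 656. Same-numbered libraries deviated together with r of 0.0904, 0.363 and 0.189. Libraries of unlike number were not compared in this way, so whether the number marks a pairing cannot be decided. The 42 genes not tested had at most 11 counts in a library, and 40 of 65 genes have counts that are not whole.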

Other observations

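By chromosome, the 10 histone genes of chromosome 3 summed to 66, 76.5 and 89.2 CPM in the KO libraries and to 19.8, 23.2 and 71.4 CPM in the WT libraries, a log2 ratio of means of 1.02 (0.11 against WT 3 alone). The 51 genes of chromosome 13 summed to 213, 221 and 208 CPM in the KO libraries and to 182, 134 and 186 CPM in the WT libraries, a log2 ratio of 0.36 (0.21 against WT 3 alone). H2bc4 and H1f2 made up 84.2% to 87% of the chromosome 13 sum in the knockout and 80% to 85.3% in the wild type, and no test compared the chromosomes. H2bu2, an H2B gene beside H2aw on chromosome 11 that the symbol rule leaves out, had 168, 139 and 159 counts in the KO libraries and 10, 8 and 207 counts in the WT libraries, with WT 3 above the knockout, as for H3c14. These values were singled out after they were seen.

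Among genes that end at the stem-loop, the sum was 33.3 ± 6.3 CPM in KO corneas and 20.1 ± 6.64 CPM in WT corneas (SD, n = 3 each). For genes that extend past it, the sum was 207 ± 16 CPM in KO and 137 ± 39.5 CPM in WT corneas. For genes without a stem-loop it was 278 ± 10.9 CPM in KO and 331 ± 68.2 CPM in WT corneas. H2ac18 alone made up 54% to 71.9% of the first sum in the knockout and 34.1% to 75.7% in the wild type.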
